A study of Zea mays with 9 samples.

Results

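The transcriptome described here is that of mock-infiltrated maize (Zea mays) leaves, taken from the 3 mock libraries of a series of 9. They were chosen by their label as mock and are described on their own, with no treatment set against them. Zip1, a short signalling peptide of maize, is the subject of the study, and the other 6 libraries, not used here, came from leaves given salicylic acid or the Zip1 peptide. Seedlings of the cultivar Golden Bantam, a sweet corn, spent 8 days in soil before leaf 2 was cut off, and water with 0.1% dimethyl sulfoxide (DMSO, the solvent) was drawn into the tissue at a vacuum of 60 mbar. Leaves were harvested 6 h after infiltration. All 3 libraries therefore came from cut and infiltrated leaves, and no untouched leaf is analysed here. The labels do not say whether the libraries came from separate plants or how many plants were pooled, so the spread given below is the spread between these libraries.

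Maize leaves fix carbon by the C4 pathway, which divides photosynthesis between 2 cell types. Mesophyll cells capture carbon dioxide with phosphoenolpyruvate (PEP) carboxylase and pass it as malate to the bundle sheath cells around the veins, where malic enzyme releases it for Rubisco and the Calvin cycle. The light reactions run in the thylakoid membranes of the chloroplast, where antenna proteins pass absorbed energy to photosystems II and I. Most of the proteins of these membranes are encoded in the nucleus, and the core subunits are encoded in the chloroplast itself.

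Messenger RNA was counted for 39755 genes at 31202277, 31924387 and 30242293 counts in mock replicates 1, 2 and 3. Counts were divided by gene length and scaled to a total of 1000000 in each library, giving transcript levels in TPM, so that a TPM value is a relative abundance that can be compared between genes. Means are over the 3 libraries, and ± is the SD over them (n = 3). In the mean, 19424 genes (48.9%) stood at 1 TPM or more, 17863 of them in each library, and 11085 genes had no count in any mock library. A gene near 1 TPM rested on a median of 28 counts per library. Gene names below are those of the most similar described protein paired with each gene, often from another species, and are not maize gene symbols.

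The leaf label was checked against marker lists. The summed level of 15 mesophyll marker genes was 29034 ± 1723 TPM and that of 21 bundle sheath marker genes 31031 ± 7682 TPM. Of 40 genes for seed proteins such as zeins and oleosins, 32 had no count, and the 40 together summed to 4.08 ± 1.60 TPM. The 139 flower and pollen markers summed to 240.0 ± 47.4 TPM, of which 101 TPM came from a gene similar to MADS-box transcription factor 51 of rice. The next was also a MADS-box gene, at 45.7 TPM. The highest pollen allergen gene had 1.09 TPM, and 87 of the 139 genes had no count. The 25 root markers summed to 258 ± 129 TPM, with 149 TPM in a nicotianamine synthase, an enzyme of iron transport. Of the 25, 14 had no count, and the 5 at 1 TPM or more all had this same entry. The root sum is therefore almost wholly that of nicotianamine synthase genes. Genes for DNA replication and mitosis summed to 294 ± 19.9 TPM, with 6 of 47 at 1 TPM or more. The highest was a Cyclin-B1-2 gene at 103 TPM, followed by genes of the same entry at 90.6 and 54.2 TPM. The 67 epidermis and cuticle markers summed to 1723 ± 514 TPM, the 14 phloem and xylem markers to 1778 ± 254 TPM, and the 12 guard cell markers to 12.6 ± 2.64 TPM. Sugar transporter genes made up most of the phloem and xylem sum, led by genes at 651 and 611 TPM. The highest cellulose synthase gene of that list, a xylem marker, had 11.1 TPM. In a whole leaf, fewer cells of a type and less RNA per cell cannot be told apart.

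The pool was concentrated in few transcripts. The 10 most abundant genes held 12.2 ± 1.38% of all TPM, the 100 most abundant 40.4 ± 3.74%, and 255 genes held 50% of it. Above 1000 TPM there were 109 genes with 41.4% of the pool, and the 7 highest genes each stood at 10396 TPM or more. Below them came 1114 genes at 100 to 1000 TPM with 25.9% of the pool, 9379 at 10 to 100 TPM with 28.6%, and 8822 at 1 to 10 TPM with 3.81%. The libraries differed in this respect: 50% of TPM was reached with 260 genes in replicate 1, 169 in replicate 2 and 340 in replicate 3. Replicate 2 was the most concentrated and replicate 3 the least.

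**Figure D1:**
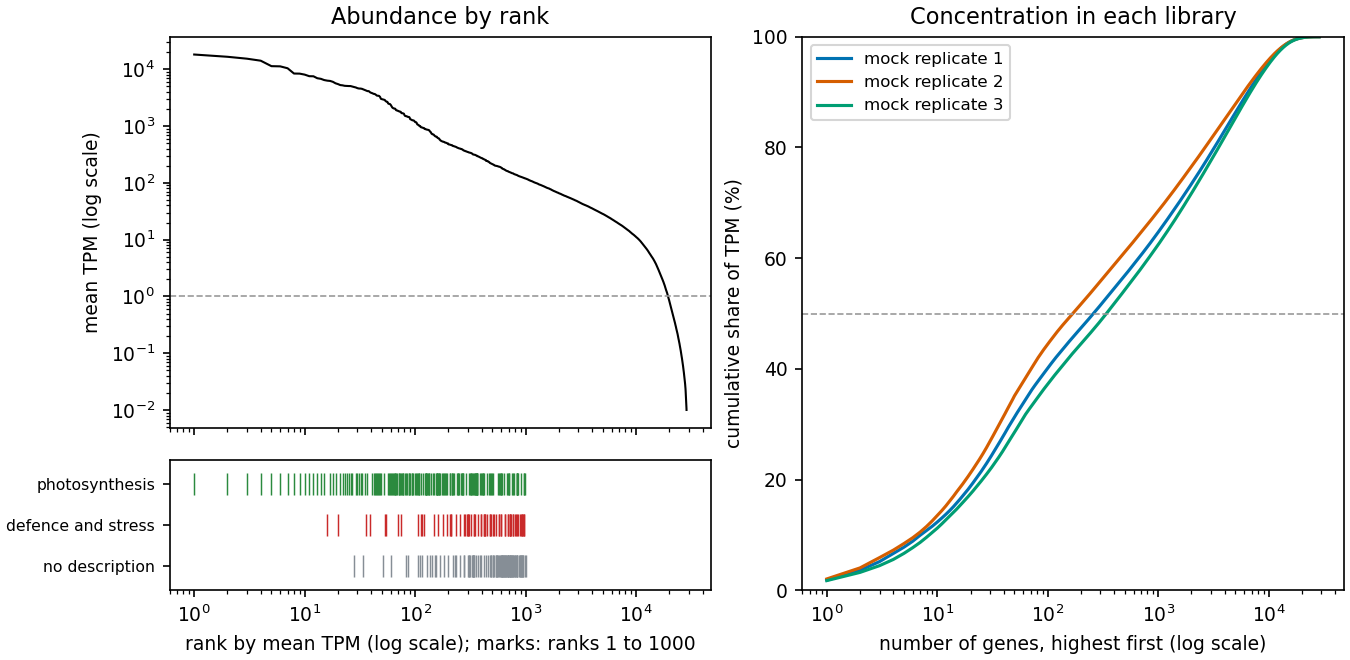
Upper left, mean TPM of each gene against its rank, both on log scales, with a dashed line at 1 TPM; lower left, the ranks up to 1000 of photosynthesis, defence and stress, and undescribed genes. Right, cumulative share of TPM in each mock library against the number of genes on a log scale, with a dashed line at 50%: the curve of replicate 2 crosses it at 169 genes, that of replicate 1 at 260 and that of replicate 3 at 340.

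Photosynthesis filled the top of the ranking. By the words of their protein entries, 23 of the 25 most abundant genes, 41 of the top 50 and 70 of the top 100 belonged to 7 photosynthesis classes. Those classes held 546 genes, of which 341 were at 1 TPM or more, and took 37.4 ± 5.95% of all TPM, with 37.5% in replicate 1, 43.3% in replicate 2 and 31.4% in replicate 3. Photosystem and electron transport genes were the largest class of the 7 at 17.9 ± 2.27%. Light harvesting followed at 8.81 ± 2.47%, Rubisco and the Calvin cycle at 5.05 ± 0.959% and the C4 cycle at 3.87 ± 0.258%. That order depends on the division by gene length: of raw counts, the C4 cycle, whose leading genes are long, took 7.93%, light harvesting 6.28% and the Calvin cycle 4.68%. Chlorophyll and carotenoid synthesis took 0.730 ± 0.228%, the chloroplast ATP synthase 0.561 ± 0.0763% and photorespiration, which recycles the product of Rubisco's reaction with oxygen, 0.514 ± 0.0442%. The top 100 transcripts came from short genes, with a median length of 1162.5 bases against 1900 bases over all genes at 1 TPM or more.

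The most abundant transcript encoded subunit psaK of photosystem I, a small membrane protein at the edge of the complex where antenna proteins attach. The gene is Zm00001eb299990, on chromosome 7 from 5295774 to 5296552 on the plus strand in the coordinates of the count table, whose genome build is not given in the sources used here. It stood at 18288, 18565 and 17582 TPM in replicates 1, 2 and 3, a mean of 18145 ± 507 TPM. The 3 libraries lay within 1.06-fold of each other, and its rank was 1, 3 and 1. Of the other photosystem I proteins, subunit VI (PSI-H), a docking site for mobile antenna, came from Zm00001eb295610 on chromosome 6 (175524528 to 175525588, plus strand), with 10764, 13495 and 9439 TPM. Subunit II (PSI-D), which binds ferredoxin on the stromal side, came mainly from Zm00001eb061730 on chromosome 1, with 7654, 10001 and 7432 TPM. Replicate 2 was the highest library for both.

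The 9 nuclear subunit families of photosystem I summed to 79290 ± 10923 TPM, between 4961 TPM for subunit V and 18145 TPM for psaK. The genes within a family were unequal. For subunits II, N and O the higher gene of a pair held 96.4%, 98.6% and 96.4% of the family's TPM, while the 2 genes of subunit IV stood close together at 5204 TPM for Zm00001eb096870 and 4640.3 TPM for Zm00001eb306070. Subunit XI was divided 72.9% to Zm00001eb336580 and subunit V 58.9% to Zm00001eb101660. Subunit III (PSI-F), the docking site of plastocyanin, came from the lone gene Zm00001eb213670 at 6937, 6427 and 5284 TPM. Photosystem I subunit O is uncertain between its 2 genes, which are neighbours with the same entry, and the counted gene Zm00001eb083680 overlaps another gene.

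Photosystem II proteins outside the chloroplast-encoded core summed to 48441 ± 6465 TPM over 8 families. The most abundant was the 10 kDa polypeptide (PsbR), which supports the oxygen-evolving complex, from Zm00001eb171230 on chromosome 4 (29020891 to 29022321, minus strand). Its 3 libraries gave 11366, 10472 and 12127 TPM, with replicate 2 the lowest. The oxygen-evolving enhancer proteins, which shield the manganese cluster that splits water, had family sums of 9043 ± 1688 TPM for protein 1 (PsbO), 7374 ± 1621 TPM for protein 2 (PsbP) and 6665 ± 1730 TPM for protein 3 (PsbQ). PsbO came 92.8% from Zm00001eb273380, at 7239, 10125 and 7824 TPM, whereas the upper pair of PsbP genes stood at 3777 and 3406 TPM and the PsbQ pair at 3396 and 3269 TPM. The 22 kDa protein (PsbS), which acts in the dissipation of excess light, was even across libraries at 1503, 1411 and 1423 TPM.

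Electron carriers between and after the photosystems summed to 27456 ± 1931 TPM. Plastocyanin, the copper protein that carries electrons to photosystem I, totalled 10427 ± 1370 TPM from Zm00001eb268360 (5653 TPM) and Zm00001eb379570 (4775 TPM), which overlaps another gene. The Rieske iron-sulfur subunit of the cytochrome b6f complex came 78.9% from Zm00001eb238370 at 7537 ± 791 TPM. Ferredoxin (14 genes) and ferredoxin-NADP reductase (11 genes), which pass electrons on to NADP, reached 3941 ± 844 and 3539 ± 427 TPM. Their highest genes held 51.6% of the ferredoxin TPM and 60.0% of the reductase TPM.

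**Figure D2:**
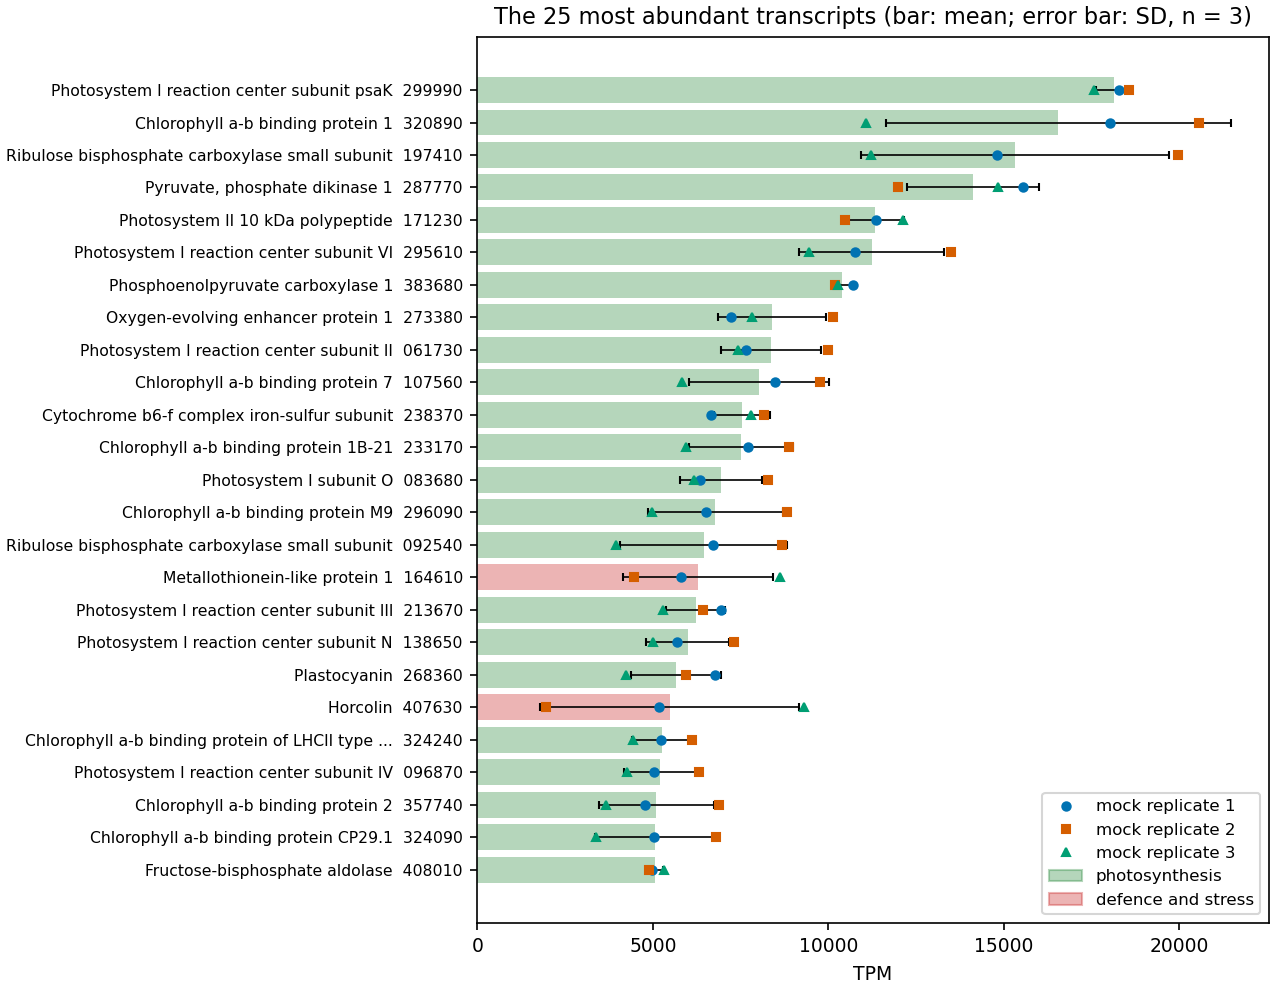
TPM of the 25 most abundant genes, labelled by protein entry and the last 6 digits of the gene identifier; bars are means, error bars the SD over 3 libraries and symbols the libraries. The psaK gene and PEP carboxylase 1 have their 3 libraries close together, while the horcolin-like gene lies between 1953 TPM in replicate 2 and 9303 TPM in replicate 3.

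Light-harvesting genes were few and high: of 41 genes, 32 were at 1 TPM or more and 18 at 1000 TPM or more. The second most abundant transcript of the leaf was chlorophyll a-b binding protein 1, an antenna protein of photosystem II, from Zm00001eb320890 on chromosome 7 (153471484 to 153472599, minus strand). It had 18035, 20571 and 11061 TPM in replicates 1, 2 and 3, a mean of 16556 ± 4925 TPM. Its rank was 1 in replicate 2 and 5 in replicate 3. A list of 12 genes, mostly of the major antenna (LHCII), summed to 51773 ± 14843 TPM. It also took in the entry chlorophyll a-b binding protein 1B-21, which belongs to the photosystem I antenna. The minor antenna proteins CP24, CP26 and CP29 summed to 16013 ± 5314 TPM over 9 genes. The minor antenna summed to 16395, 21126 and 10518 TPM in replicates 1 to 3. Both sums were highest in replicate 2 and lowest in replicate 3. Outside these lists, the photosystem I antenna included 2 genes paired with chlorophyll a-b binding protein 7 of tomato, Zm00001eb107560 at 8032 ± 2002 TPM and Zm00001eb325410 at 4939.6 TPM.

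Of the chlorophyll synthesis genes, the most abundant was the oxidative cyclase that forms the fifth ring of chlorophyll (Zm00001eb332650), with 1768, 1849 and 706 TPM. The ChlH subunit of magnesium chelatase (Zm00001eb433610), which commits the pathway to chlorophyll, had 879, 752 and 325 TPM. Replicate 3 was the lowest library for both, and the class as a whole stood at 0.811%, 0.907% and 0.473% of TPM in replicates 1 to 3.

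Most C4 cycle enzymes came largely from a lead gene each, while the dicarboxylate transporter was divided, with 55.2% from its highest gene. Pyruvate, phosphate dikinase (PPDK), which regenerates the carbon acceptor PEP in mesophyll chloroplasts, was led by Zm00001eb287770 on chromosome 6 (157076338 to 157087055, plus strand). It had 15546, 11984 and 14842 TPM, a mean of 14124 ± 1886 TPM, and ranked 4 by TPM and 1 by raw counts, being a long gene of 4406 bases. It held 97.2% of the TPM of its 3 genes. A neighbour with the same entry, Zm00001eb287740, stood at 264 TPM, and reads may have been divided between them.

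PEP carboxylase 1, the enzyme that first fixes carbon in the mesophyll, was Zm00001eb383680 on chromosome 9 (70927063 to 70932470, minus strand). It had 10707, 10201 and 10280.2 TPM, a mean of 10396 ± 272 TPM, and held 97.8% of the TPM of its 9 genes. The 3 libraries lay within 1.05-fold. In the bundle sheath, NADP-malic enzyme was led by Zm00001eb121470 on chromosome 3 (7184482 to 7190135, plus strand), at 4325, 4541 and 3484 TPM and 97.5% of 11 genes. NADP-malate dehydrogenase, which reduces oxaloacetate to malate, came from Zm00001eb038930 alone at 1830.0 ± 147 TPM. Carbonic anhydrase, which supplies bicarbonate to PEP carboxylase, came 82.3% from Zm00001eb158810 at 1679 ± 312 TPM, beside a neighbour with the same entry.

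PEP carboxykinase, a second decarboxylase used by maize, was less even: Zm00001eb011080 had 2192, 1121 and 1167 TPM, and replicate 1 stood apart above the other two. The chloroplast PEP/phosphate translocator, which exports PEP to the cytosol, came 97.1% from Zm00001eb042970 at 1679 TPM. The PPDK regulatory protein, which switches PPDK by phosphorylation, totalled 1054 ± 219 TPM. The kinase that phosphorylates PEP carboxylase was near the detection limit, with 3 genes summing to 1.64, 0.918 and 0.441 TPM. The gene paired with PPDK 2, Zm00001eb349810, had 205, 43.5 and 181 TPM and was lowest in replicate 2.

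In the Calvin cycle, the small subunit of Rubisco was the largest item. Its 2 genes were Zm00001eb197410 on chromosome 4 (196177320 to 196178190, minus strand), with 14796, 19959 and 11217 TPM, and Zm00001eb092540 on chromosome 2 (147040782 to 147041974, plus strand), with 6709, 8693 and 3939 TPM. Together they gave 21771 ± 6752 TPM, of which 70.4% came from Zm00001eb197410, a gene that overlaps another. Both genes were highest in replicate 2 and lowest in replicate 3. Chloroplast aldolase, which joins triose phosphates, was led by Zm00001eb408010 at 4962, 4886 and 5321 TPM, with little spread. Glyceraldehyde-3-phosphate dehydrogenase A had 4572 ± 1055 TPM and subunit B 2442 ± 186 TPM, phosphoribulokinase 2446 ± 349 TPM, and Rubisco activase, which clears inhibitors from Rubisco's active site, 1098 ± 194 TPM.

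**Figure D3:**
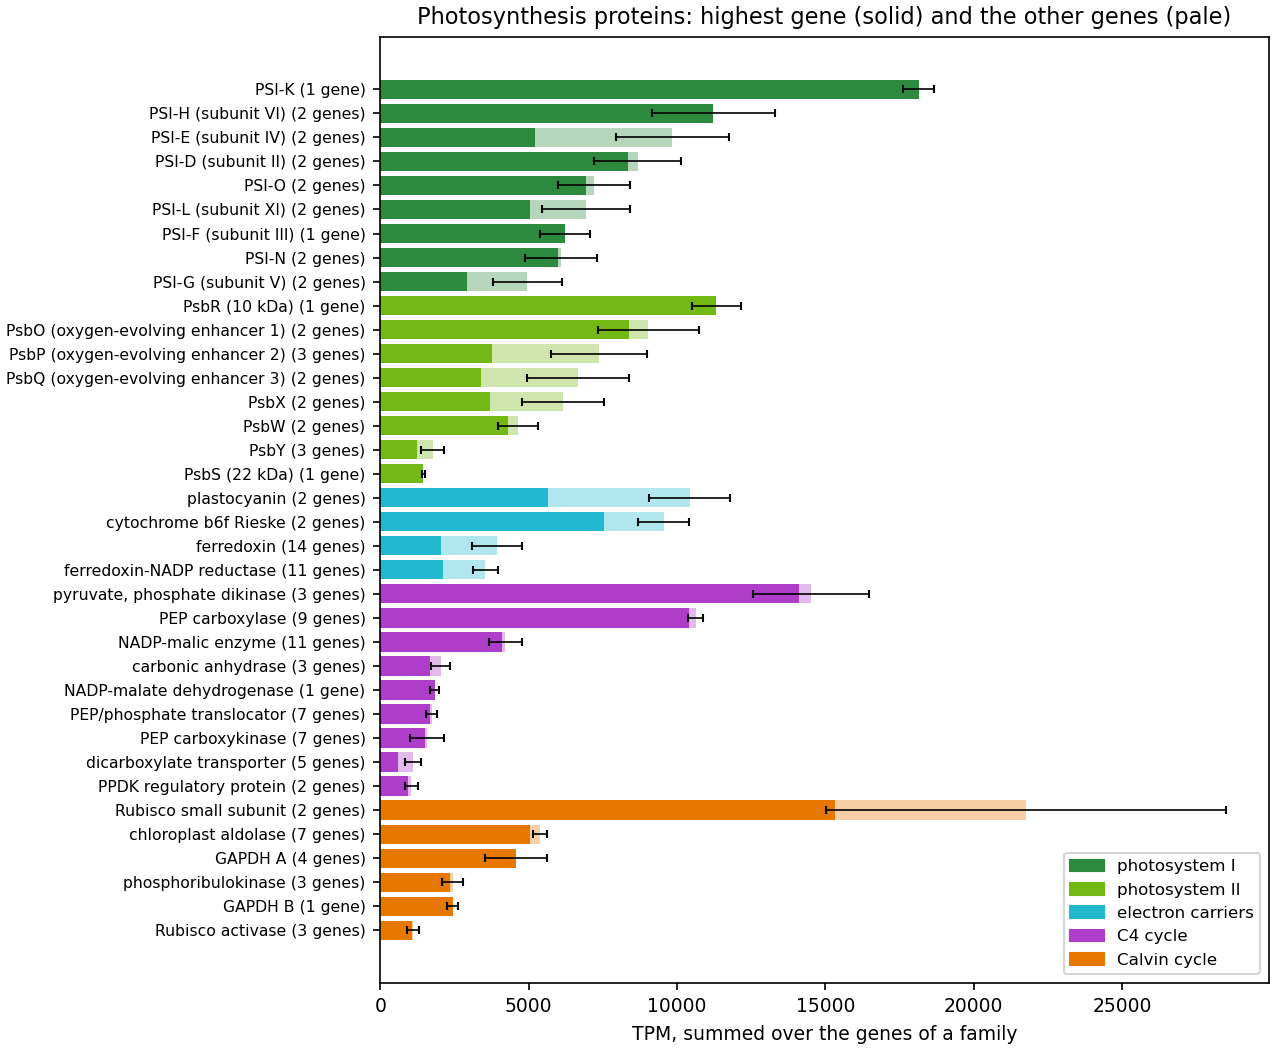
TPM summed over the genes of each photosynthesis protein family (mean, with the SD over 3 mock libraries as error bars); solid bars show the highest gene and pale bars the other genes of the family, and families under 100 TPM are not drawn. PEP carboxylase and PPDK rest on a lead gene at 97.8% and 97.2% of the family, while plastocyanin and photosystem I subunit IV are divided between 2 genes.

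The mesophyll and bundle sheath marker sums differed in how they varied between libraries. Mesophyll markers summed to 30550 TPM in replicate 1, 27161 TPM in replicate 2 and 29393 TPM in replicate 3, and bundle sheath markers to 31975, 38198 and 22922 TPM in the same order. The ratio of the 2 sums was 0.955, 0.711 and 1.28, with its highest value in replicate 3. Rubisco small subunit genes dominate the bundle sheath list and PPDK and PEP carboxylase the mesophyll list. The part of cell numbers in this spread was not tested.

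No gene of the table lay on a chloroplast or mitochondrial chromosome. The table held 90 nuclear gene models whose entries are proteins encoded in the chloroplast, such as the photosystem II protein D1 and the Rubisco large subunit. Of these, 67 had no count and 4 reached 1 TPM, and the 90 summed to 16.8 ± 5.73 TPM. Transcripts of the chloroplast genome are not analysed here.

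Outside photosynthesis, 15748 genes with other descriptions took 24.9 ± 2.05% of TPM. Transcription factors held 2.90 ± 0.391% over 2960 genes, ubiquitin and proteasome genes 2.62 ± 0.317%, kinases and receptors 2.59 ± 0.317%, and genes of glycolysis, the TCA cycle and respiration 1.80 ± 0.196%. The form of a class differed as much as its size. In the cytosolic ribosomal class, 66 genes made up 50% of its TPM and its highest gene held 3.59% of it. In contrast, aquaporin TIP1-1 (Zm00001eb003730), a water channel of the vacuole membrane, held 75.3% of the aquaporin class at 2975 ± 446 TPM.

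**Figure D4:**
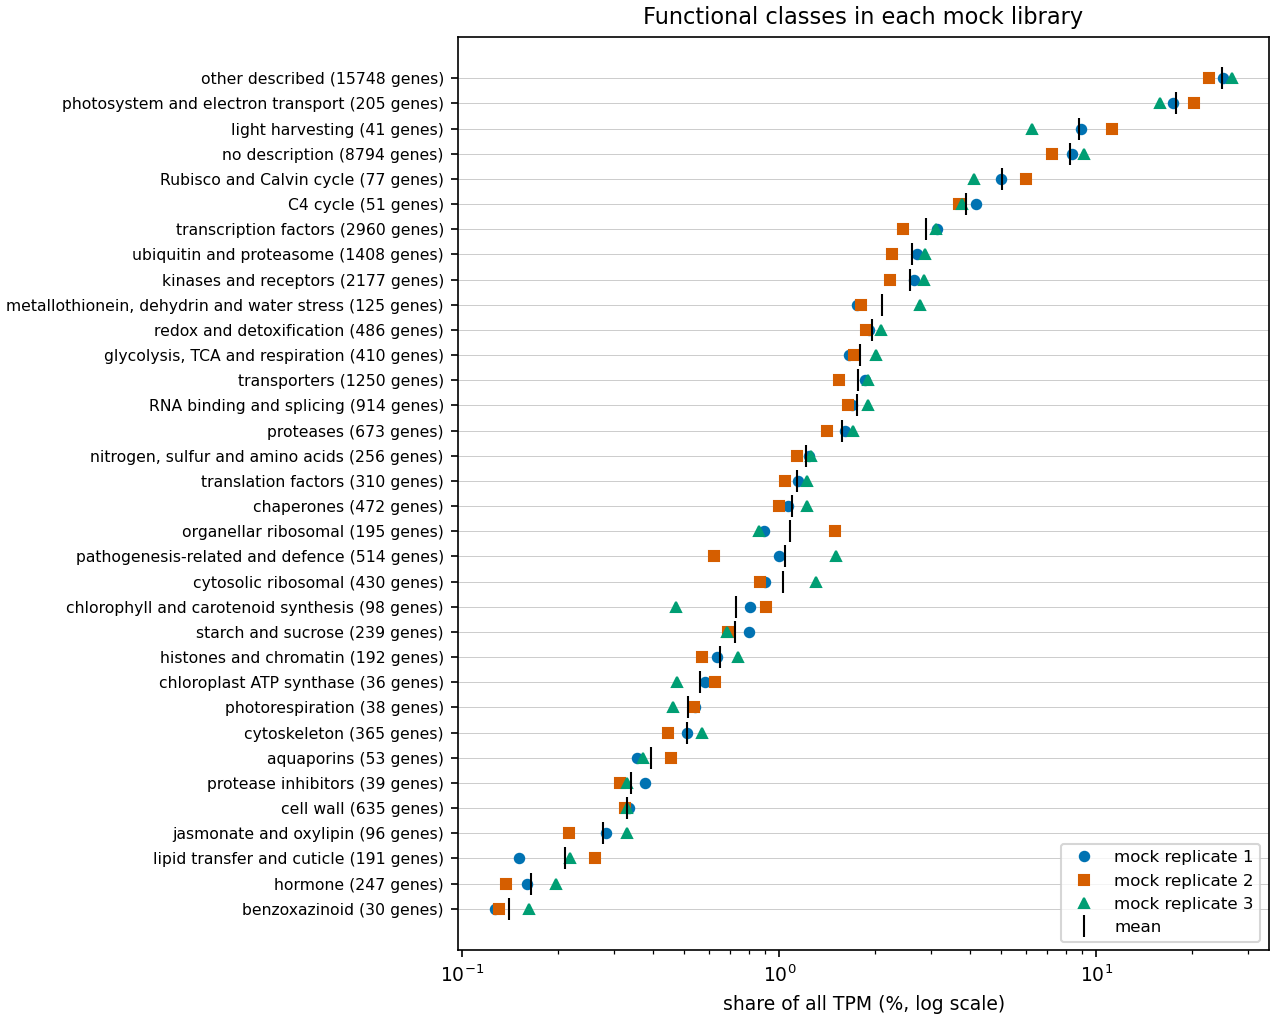
Share of all TPM, in percent on a log axis, taken by each of 34 functional classes in the 3 mock libraries (symbols) and in the mean (vertical bars), with the number of genes in parentheses. Light harvesting lies between 6.27% in replicate 3 and 11.2% in replicate 2, and cytosolic ribosomal genes between 0.869% in replicate 2 and 1.31% in replicate 3.

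Cytosolic ribosomal proteins, the building blocks of the ribosomes that translate nuclear messages, took 1.03 ± 0.245% of TPM over 430 genes, of which 313 were at 1 TPM or more. Their highest gene was a 60S L38 gene, Zm00001eb198420, at 369 ± 68.0 TPM, a gene of 210 bases whose level per length depends on how reads at short genes were counted. Ribosomal proteins of chloroplasts and mitochondria took 1.08 ± 0.357% over 195 genes, led by a 50S L19 gene (Zm00001eb249160) at 926 ± 216 TPM. Translation factors held 1.14 ± 0.0909%, with 2 genes for initiation factor 5A at 858 and 495 TPM.

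Among other metabolic genes, S-adenosylmethionine decarboxylase (Zm00001eb078440), an enzyme of polyamine synthesis, had 3837 ± 205 TPM and ranked 40 of all genes. Chloroplast glutamine synthetase (Zm00001eb432580), which assimilates ammonium, had 998 ± 205 TPM. The small subunit of ADP-glucose pyrophosphorylase (Zm00001eb042990), the controlling step of starch synthesis, had 807 ± 42.0 TPM, and sucrose-phosphate synthase (Zm00001eb364620) 476 ± 113 TPM. Sugar export was represented by a gene similar to the rice sucrose transporter SUT1 (Zm00001eb005460) at 604, 501 and 848 TPM and by 3 SWEET13-like genes, whose products release sucrose before phloem loading. The SWEET13-like genes Zm00001eb408920, Zm00001eb133100 and Zm00001eb408900 had 611 ± 155, 359 ± 72.6 and 106 ± 32.5 TPM, and the gene at 611 TPM has the one at 106 TPM as a neighbour with the same entry.

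Defence and stress classes together took 5.88 ± 1.18% of TPM over 1290 genes, of which 571 were at 1 TPM or more. The metallothionein, dehydrin and water stress class took 2.12 ± 0.578% and redox and detoxification genes 1.96 ± 0.117%. Of raw counts, with no division by gene length, these classes took 1.01% and 1.58%, the opposite order. Its first gene was metallothionein-like protein 1 (Zm00001eb164610, chromosome 4, 1587692 to 1588505, minus strand), a small metal-binding protein, with 5800.0, 4449 and 8630.0 TPM. The next, Zm00001eb362480, carried an ABA/WDS domain, named for abscisic acid and water deficit, and had 3734, 2722 and 6172 TPM. Both were highest in replicate 3 and lowest in replicate 2. Of all genes at 10 TPM or more, 48.8% were highest in replicate 3 and 61.5% lowest in replicate 2. Within the metallothionein, dehydrin and water stress class these shares were 60.0% and 33.3%. A gene similar to EARLY RESPONSIVE TO DEHYDRATION 15 of Arabidopsis (Zm00001eb286310), which overlaps another gene, had 3932 ± 634 TPM.

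The pathogenesis-related and defence class took 1.04 ± 0.449% of TPM over 514 genes, and a lone gene held 52.4% of it. This gene, Zm00001eb407630 on chromosome 10 (8428423 to 8429881, minus strand), was paired with horcolin, a sugar-binding lectin of barley. It had 5166, 1953 and 9303 TPM in replicates 1, 2 and 3, a mean of 5474 ± 3684 TPM. The libraries differed 4.76-fold, and its rank was 24, 74 and 8. The ricin B-like lectins, another family of sugar-binding proteins, had the same order of libraries, with a sum over 6 genes of 1227, 609 and 1953 TPM. Their highest gene, Zm00001eb330890, had 427, 185 and 775 TPM beside a neighbour with the same entry. Of the genes of this defence class at 10 TPM or more, 54.7% were highest in replicate 3 and 51.6% lowest in replicate 2. Over all genes at that level the shares were 48.8% and 61.5%.

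Named pathogenesis-related and thaumatin-like proteins, classic products of the salicylic acid response, were low beside these lectins. The 63 genes summed to 196 ± 46.6 TPM, 13 of them at 1 TPM or more, and the highest, Zm00001eb014000, had 52.3 TPM beside neighbours with the same entry. Chitinases, which cut fungal cell walls, summed to 397 ± 119 TPM over 37 genes. Genes tied to salicylic acid itself were also low beside these lectins. The NPR proteins, its receptors and co-regulators in Arabidopsis and rice, summed to 54.4 ± 6.15 TPM over 7 genes, PAD4 and EDS1-like proteins to 49.5 ± 6.73 TPM over 3, and phenylalanine ammonia-lyases to 74.8 ± 6.71 TPM over 25. The only isochorismate synthase (Zm00001eb310840), an enzyme on the other route to salicylic acid, had 37.7, 39.7 and 17.3 TPM. The highest NPR, PAD4 and phenylalanine ammonia-lyase genes had 31.3, 26.7 and 49.0 TPM. These values were above the median of 11.7 TPM over all genes at 1 TPM or more.

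Jasmonate and oxylipin genes, whose products form wound signals, took 0.277 ± 0.0567% of TPM. A chloroplast 13-lipoxygenase-like gene (Zm00001eb206040, paired with Lipoxygenase 2.3 of barley) had 880.3, 706 and 1269 TPM and hydroperoxide lyase (Zm00001eb209760), which makes leaf aldehydes, 796, 545 and 698 TPM. Replicate 2 was the lowest library for both, as for 65.4% of the class's genes at 10 TPM or more and 61.5% of all genes at that level. TIFY proteins, which include the JAZ repressors of jasmonate signalling, summed to 352 ± 47.9 TPM over 41 genes, and allene oxide synthase and cyclase genes to 144 ± 44.3 TPM over 9.

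Benzoxazinoids are defence compounds of grasses that are stored as glucosides and released by glucosidases. The biosynthetic genes summed to 759 ± 170 TPM over 22 genes, of which 66.0% came from the glucosyltransferase BX9 (Zm00001eb033030) at 515, 384 and 604 TPM. The glucosidases reached 639.9 ± 102 TPM over 8 genes. A BX6 gene (Zm00001eb164860) followed at 74.8 TPM, and the gene paired with indole-3-glycerol phosphate lyase, the entry step, had 4.70 TPM (Zm00001eb165610).

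Proteases and their inhibitors were examined because papain-like cysteine proteases act in the processing of plant defence peptides. The papain-like list of 64 genes summed to 3953 ± 831 TPM, with 20 genes at 1 TPM or more and 35 with no count. It was led by cysteine proteinase 1 (Zm00001eb240700) at 1176, 1275 and 1439 TPM and by 2 genes similar to oryzain alpha of rice, Zm00001eb432170 and Zm00001eb068400, at 945 ± 205 and 734 ± 196 TPM. Cystatins, the inhibitors of these proteases, summed to 366 ± 97.6 TPM over 11 genes, and metacaspases to 1397 ± 270 TPM over 15. The most abundant inhibitor was of serine proteases: a gene similar to subtilisin-chymotrypsin inhibitor-2A of barley (Zm00001eb355990) had 3227, 2433 and 2579.5 TPM and held 80.5% of its class, beside a neighbour with the same entry.

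The transcription factor class held 2960 genes that the table assigns to a family and that no class earlier in the order had taken, such as histones or the jasmonate genes with the TIFY family. Of these, 1336 (45.1%) were at 1 TPM or more, 40 at 100 TPM or more and 0 at 1000 TPM or more. A gene that the table puts in the HMG family (Zm00001eb228620, paired with the DNA-binding protein MNB1B) was counted with the histones and chromatin and stood at 1258 ± 324 TPM. The highest within the class was a B-box zinc finger gene similar to BBX24 of Arabidopsis (Zm00001eb078770), a class of regulators that act in light signalling, with 882, 670.0 and 1041 TPM; it overlaps another gene. A bZIP gene with no protein entry, Zm00001eb264930, followed at 871, 540.2 and 731 TPM, and a bZIP similar to the light-inducible protein CPRF2 of parsley (Zm00001eb031210) had 702, 389 and 498 TPM. Replicate 2 was the lowest library for all 3. It was also the lowest for 71.6% of the class's genes at 10 TPM or more and for 61.5% of all genes at that level.

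Within the class, bZIP factors had the highest sum of a family at 2731 ± 456 TPM, with 69 of 126 genes at 1 TPM or more. Some small families were detected in full: 12 of 12 CONSTANS-like genes, with 1090.5 ± 126 TPM, and 6 of 6 double B-box genes, with 694 ± 210 TPM. The BBX24-like gene Zm00001eb078770 is assigned to neither of these families and is not in their sums. Other small families were detected in part, such as YABBY, with 3 of 12 genes, and SRS, with 1 of 10. Of the whole class 45.1% was detected, and of all genes 48.9%. The shares were lower for ERF (70 of 217, 32.3%), NAC (54 of 145, 37.2%) and WRKY genes (51 of 136, 37.5%). The bZIP share was higher, at 54.8%. WRKY factors, many of which act in defence, summed to 699 ± 161 TPM, and their highest gene, Zm00001eb350280, had 80.4 TPM.

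Genes with no protein entry, no Pfam domain and no transcription factor family numbered 8794 and took 8.26 ± 0.952% of TPM. Of these genes, 2606 (29.6%) were at 1 TPM or more. Their first gene, Zm00001eb266840 on chromosome 6 (46114646 to 46114987, minus strand), had 5575, 2095 and 6897 TPM and a length of 243 bases. It was lowest in replicate 2, as was Zm00001eb365040 with 2393, 813 and 3528 TPM. So were 56.6% of the undescribed genes at 10 TPM or more and 61.5% of all genes at that level. The undescribed gene next in rank after Zm00001eb266840 was Zm00001eb245320, which had 4466, 5294 and 3466 TPM and overlaps another gene. Next came Zm00001eb119610, with 2948 ± 834 TPM.

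The order within the top of the ranking was loose. Of the 25 pairs of neighbours from rank 1 to 26, the ranges of the libraries did not overlap in 1, between PEP carboxylase 1 at 10201 to 10707 TPM and oxygen-evolving enhancer protein 1 at 7239 to 10125 TPM. In 2 pairs the order was the same in all 3 libraries. Membership was steadier: 7 genes were in the top 10 of every library, 17 in the top 25 and 85 in the top 100. Of the top 25 by TPM, 19 were also in the top 25 by raw counts.

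Genes at 1000 TPM or more had a median coefficient of variation (CV) between libraries of 18.9%, and those at 1 to 10 TPM one of 27.8%. Of 2764 genes at 50 TPM or more, 376 (13.6%) differed 2-fold or more between their highest and lowest library. Among 10602 genes at 10 TPM or more, 36.4% were highest in replicate 1, 14.8% in replicate 2 and 48.8% in replicate 3. Of the same genes, 20.9% were lowest in replicate 1, 61.5% in replicate 2 and 17.6% in replicate 3. Because TPM sums to the same total in each library, a larger photosynthesis share leaves a smaller share for all other genes.

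The classes departed from this background in different directions. Of 30 light-harvesting genes at 10 TPM or more, 24 (80.0%) were highest in replicate 2. Of the same 30, 25 (83.3%) were lowest in replicate 3, against 17.6% of all genes at that level. Photosystem and electron transport genes were highest in replicate 2 in 87 of 116 cases, Calvin cycle genes in 26 of 38, and organellar ribosomal genes in 48 of 77. Of the C4 cycle genes, 9, 8 and 6 of 23 were highest in replicates 1, 2 and 3, a share of 34.8% for replicate 2. Cytosolic ribosomal genes were highest in replicate 3 in 225 of 244 cases (92.2%), and genes of glycolysis, the TCA cycle and respiration in 140 of 208.

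**Figure D5:**
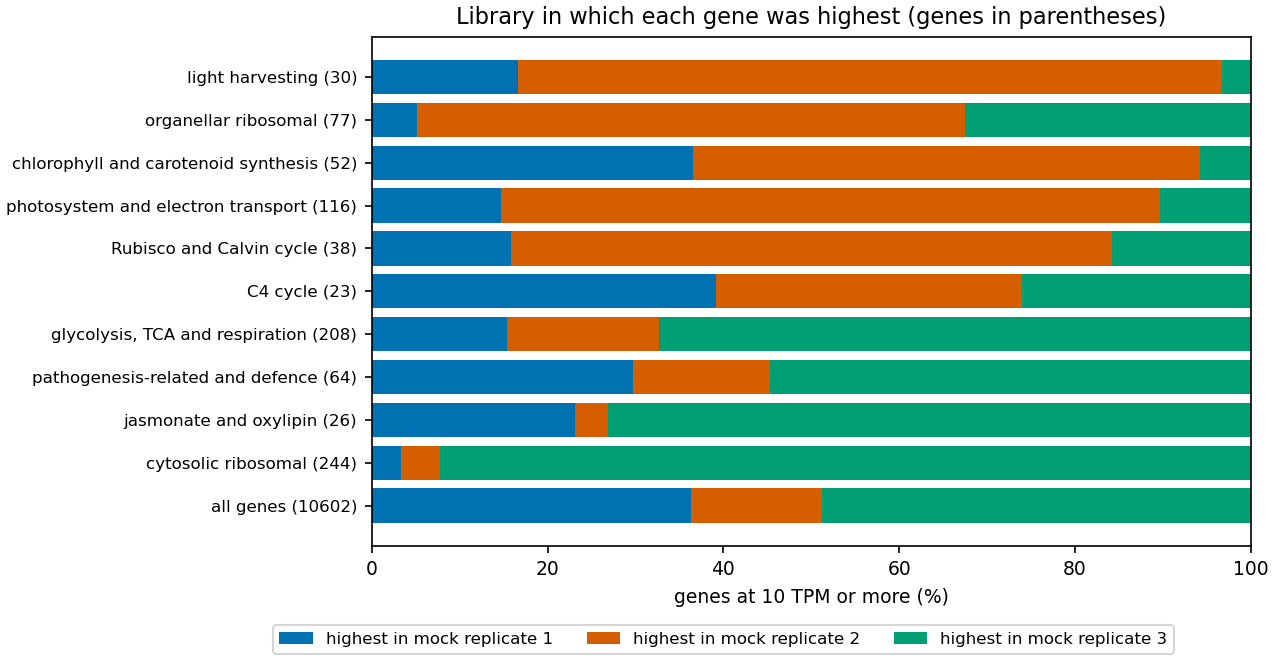
Share of the genes of a class, in percent of those at 10 TPM or more, that were highest in mock replicate 1, 2 or 3, with the number of genes in parentheses and all 10602 genes at the bottom. Light-harvesting genes are mostly highest in replicate 2 and cytosolic ribosomal genes mostly in replicate 3.

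The shares were also taken over the pool without photosynthesis genes. There, organellar ribosomal genes stood at 1.43%, 2.64% and 1.25% in replicates 1 to 3, and cytosolic ribosomal genes at 1.44%, 1.53% and 1.91%. Proteases, at 2.57%, 2.50% and 2.49%, and translation factors, at 1.83%, 1.84% and 1.78%, stood level there. Defence and stress genes stood at 8.73%, 8.77% and 10.5% there, and the metallothionein, dehydrin and water stress class at 2.81%, 3.19% and 4.06%. Epidermis and cuticle markers summed to 1159, 2166 and 1842 TPM in the same libraries. Root markers, almost wholly nicotianamine synthase genes, summed to 220.4, 152 and 402 TPM. The part of tissue make-up in the spread was not tested.

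Of the 10 most variable genes, most had no protein entry. Of genes at 50 TPM or more, the largest CV was 142% for Zm00001eb299050, a gene of 303 bases with 57.5 and 399 TPM in replicates 1 and 2 and 0 in replicate 3. A low molecular mass early light-inducible protein (Zm00001eb116960), a pigment-binding protein of light stress, had 63.9, 362 and 28.3 TPM. A germin-like protein (Zm00001eb282040), of a family of cell wall proteins, had 86.8, 389 and 36.5 TPM. Both were highest in replicate 2. Zm00001eb263370, of 210 bases and no description, had 2161, 348 and 312 TPM and was highest in replicate 1. At the other end, PsbP domain-containing protein 3 (Zm00001eb035340) had 362, 367 and 362 TPM, a CV of 0.798%.

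Expressed genes were spread over all 10 chromosomes. Chromosome 1 held 14.8% of the genes and 12.6 ± 0.261% of TPM, and chromosome 7 held 7.72% of the genes and 12.4 ± 0.857% of TPM. Photosynthesis genes gave 7.81 of the percentage points on chromosome 7, where psaK and chlorophyll a-b binding protein 1 lie, and 2.89 of those on chromosome 1. The 721 genes on scaffolds took 0.0239% of TPM.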

How the data were processed

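Leaf messenger RNA was selected by poly-A and primed with random hexamers, per the labels' protocols. The authors deposited raw counts per gene with a gene length for each, and HISAT2 2.0.5, featureCounts 1.5.0-p3 and DESeq2 1.20.0 are named, without roles, per the submitters' processing notes. The strand setting of the counting and the genome build are not given in the sources used here, so overlapping genes and neighbours with the same entry are uncertain. A deposited FPKM file was not used, because its values had lost their decimal points. Every count column was matched to a library by name, and 0 columns were left unmapped.

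TPM was computed per library as counts over gene length, scaled to a total of 1000000, with Python 3.11.15, pandas 2.3.3 and numpy 2.4.6, and averaged over the 3 mock libraries. A mean of 1 TPM counted as detected. No test was run, since no groups are compared; the computation was tested on simulated data. Each gene went to the first of 34 classes it matched. Transcription factors were matched by the family column of the table and the other described classes by words in the protein entry, or in the Pfam domain where there was no entry. Of genes at 1 TPM or more, 78.3% had an entry. A gene was called highest or lowest in a library for genes at 10 TPM or more.

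Named genes were the 25 highest, the 4 highest of each class, the 12 highest transcription factors, the 8 highest without a description, the 10 most and 5 least variable at 50 TPM or more, the C4 cycle genes, the Rubisco small subunit genes and the highest gene of each marker list. Families and the genes named from them were chosen by words afterwards, with values seen. The members and lists were chosen with earlier results of these data known. Alternatives used TMM factors (edgeR 4.0.16 in R 4.3.3), size factors (DESeq2 1.42.0), other lengths and filters, and fewer libraries.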

Additional observations from a re-analysis of the deposited data

How the results depend on the processing

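Without division by gene length, 497 genes held 50% of the pool in place of 255, cytosolic ribosomal genes took 0.649% in place of 1.03%, defence and stress genes 4.06% in place of 5.88%, and photosynthesis genes 32.8%. That setting moved 134 of 207 named genes by more than their SD over libraries, and lengths shortened by 200 bases moved 45. No other setting moved the main shares or counts beyond the spread between libraries. Leaving out each library in turn gave 34.5% to 40.4% for photosynthesis and 214 to 304 genes for 50% of TPM. A mean over 3 libraries cannot move by more than their SD when 1 is left out, so that setting could not show a larger move. TMM and size factors scale a whole library and leave the shares within it unchanged, so they could not test the shares. Setting aside genes under 300 bases, chosen after seeing the data, gave 38.0% for photosynthesis. No paired analysis was possible because only 1 group is described. At 1 TPM, with a median of 28 counts per library, counting limits precision.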
